A study of Mus musculus with 3 samples.

Results

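The integrated stress response is described here through 10 genes, namely the transcription factor gene Atf4, its relatives Atf5 and Ddit3, and the target genes Trib3, Ppp1r15a, Asns, Chac1, Ddit4, Sesn2 and Fgf21. They were taken by symbol from the annotation of the array. All 10 were found among 19084 genes, each with 1 probe. RNA of Ymac-1 cells, of a Gnmt-/- liver tumor (HCC) and of normal liver was hybridized to 3 single-colour Mouse Whole Genome OneArrays, 1 array per condition. Ymac-1 is a cell line grown in DMEM that was derived from the liver tumor of an aged Gnmt-/- mouse, and nothing states whether it is 1 clone. The HCC was bulk liver tumor tissue of a female Gnmt-/- mouse, and the normal liver was bulk liver tissue of a female wild type mouse. The ages of the mice on the arrays, and whether the tumor on the array is the one that gave rise to the line, are not stated. With 1 array per condition the differences are without a replicate check, and P values were not computed.

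In the integrated stress response, kinases that sense a shortage of amino acids, misfolded protein in the endoplasmic reticulum (ER), a lack of heme or viral RNA phosphorylate the translation factor eIF2. General protein synthesis then slows, while the mRNA of Atf4 is translated better. ATF4 protein, a basic leucine zipper (bZIP) factor, turns on genes of amino acid supply, glutathione turnover and redox defence, and under lasting stress genes of cell death. Since much of the control of Atf4 lies in translation, its mRNA level is not a measure of its protein. In the liver the response also induces the hormone FGF21.

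ATF4 binds with C/EBP partners at a composite DNA element. The letters TGATGNAA, which stand for it here (N is any base, either strand), were searched from 250 bases before to 50 bases after the annotated start of each gene (RefSeq, GRCm38.p6). All 10 members had such a window, Atf5 with 2 starts, and 4 of them held a match, namely Asns, Chac1, Fgf21 and Trib3. Over all genes with a window, 1219 of 27025 (4.51%) held one. The 4 windows are printed because genes that share these letters lay at opposite ends of the comparisons below. They run 5′ to 3′ along the gene's strand, with the match in capitals. Asns lies at chr6:7693160-7693459 (minus strand), Chac1 at chr2:119350992-119351291 (plus strand), Fgf21 at chr7:45615441-45615740 (minus strand) and Trib3 at chr2:152344011-152344310 (minus strand).
Asns: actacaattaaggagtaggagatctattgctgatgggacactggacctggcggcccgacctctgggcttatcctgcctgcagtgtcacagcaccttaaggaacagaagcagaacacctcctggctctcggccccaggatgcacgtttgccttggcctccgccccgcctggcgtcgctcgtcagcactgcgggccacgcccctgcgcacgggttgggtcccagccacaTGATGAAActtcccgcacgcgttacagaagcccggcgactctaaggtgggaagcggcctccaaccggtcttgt
Chac1: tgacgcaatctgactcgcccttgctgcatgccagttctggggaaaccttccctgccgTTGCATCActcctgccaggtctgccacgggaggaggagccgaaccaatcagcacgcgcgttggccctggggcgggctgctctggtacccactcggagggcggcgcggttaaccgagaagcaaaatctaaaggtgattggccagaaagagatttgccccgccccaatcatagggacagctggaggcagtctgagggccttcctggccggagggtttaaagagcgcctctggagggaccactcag
Fgf21: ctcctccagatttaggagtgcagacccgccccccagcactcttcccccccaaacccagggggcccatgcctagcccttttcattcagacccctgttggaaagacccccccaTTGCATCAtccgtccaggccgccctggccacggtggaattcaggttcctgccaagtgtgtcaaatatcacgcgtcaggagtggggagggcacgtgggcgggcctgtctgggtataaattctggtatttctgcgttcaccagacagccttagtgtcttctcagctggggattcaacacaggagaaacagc
Trib3: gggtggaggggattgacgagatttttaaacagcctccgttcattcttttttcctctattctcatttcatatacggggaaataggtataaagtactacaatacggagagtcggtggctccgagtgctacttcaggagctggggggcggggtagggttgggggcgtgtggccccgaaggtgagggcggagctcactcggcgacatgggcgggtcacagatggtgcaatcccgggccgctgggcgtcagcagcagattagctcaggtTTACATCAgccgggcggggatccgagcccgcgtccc
The match lay on the gene's own strand in Asns, where it began at position -23 from the start, and on the other strand in Chac1, Fgf21 and Trib3, at -193, -139 and 15. Chac1 and Fgf21 share the same 8 letters. A match describes these letters and is not evidence of binding.

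The deposited values are linear intensities in arbitrary units, and readings under a floor of 50 were raised to it before taking log2. Genes count as higher or lower from a log2 difference of 1, the threshold below, and folds that involve a reading no higher than the floor are given as "at least". As a check of the labels, Gnmt read 56.1 in Ymac-1 and 15.6 in HCC, against 3583 in normal liver, though no source states whether the probe falls within the disrupted region. The upper quartile of the probes was 305 in Ymac-1, 336 in HCC and 193 in normal liver, so the arrays of Ymac-1 and HCC were brighter than that of normal liver. Over the 7687 genes measured above the floor on every array, the median log2 difference was 0.06 for Ymac-1 minus HCC, 0.72 for Ymac-1 minus normal liver and 0.65 for HCC minus normal liver. Differences from normal liver are therefore also given relative to these medians. Beside the liver and tumor values stand those of other cells. Of 13 hepatocyte markers, 5 lay above the floor in Ymac-1, against all 13 in HCC and in normal liver, and their summed intensity was 3213 in Ymac-1, 435666 in HCC and 316893 in normal liver. Summed macrophage markers (11 genes) read 902 in Ymac-1, 27433 in HCC and 9482 in normal liver, and endothelial markers (10 genes) 629 in Ymac-1, 13762 in HCC and 8588 in normal liver. Summed stellate and fibroblast markers (11 genes) read 139 in Ymac-1, 33673 in HCC and 16075 in normal liver, and neutrophil and lymphocyte markers (9 genes) 197 in Ymac-1, 3357 in HCC and 487 in normal liver. Single genes carried most of these tissue sums. Dcn read 29180 in HCC and 13481 in normal liver, and S100a9 read 2431 in HCC. Of the hepatocyte markers in Ymac-1, Alb read 48.3 and Cps1 4.49, while Apob read 2414, Fgb 285 and Hpx 189. Of the endothelial markers there, 2 of 10 lay above the floor. Emcn was below 0 and Egfl7 read 486. The part of such cells in the member values was not tested, and in bulk tissue fewer cells of a type cannot be told apart from less RNA per cell.

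The 10 genes did not move as a block. Asns and Chac1 stood far above both tissues in Ymac-1. Atf4, Ddit3 and Trib3 were close in Ymac-1 and HCC, and on the deposited scaling both were above normal liver. Ddit4 and Ppp1r15a were highest in HCC, Atf5 was lowest in Ymac-1, and Fgf21 was highest in normal liver. Sesn2 lay under the floor on all 3 arrays.

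**Figure D1:**
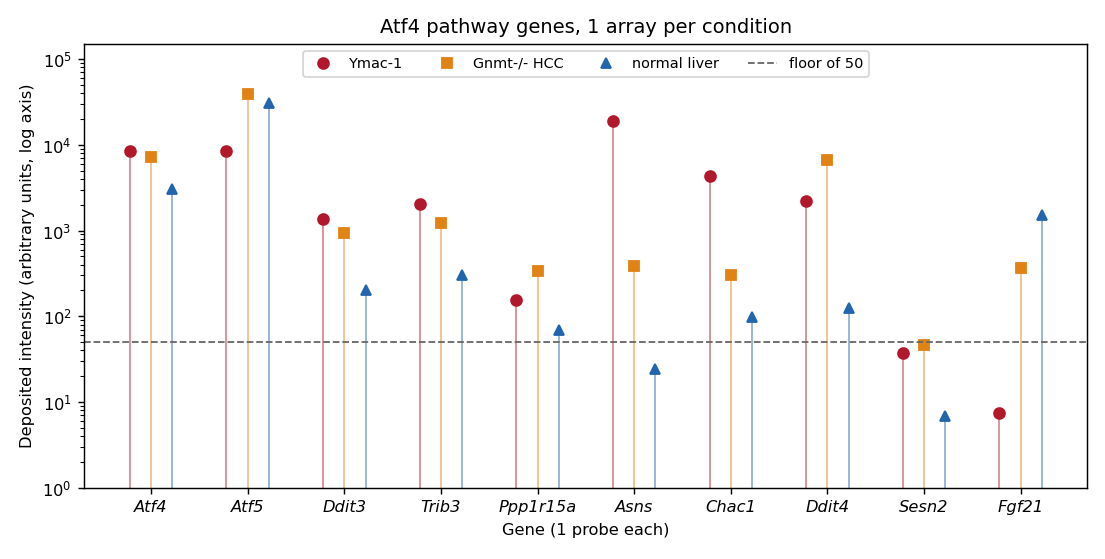
Deposited intensity (arbitrary units, log axis) of the 10 genes, 1 point per array, in Ymac-1, Gnmt-/- HCC and normal liver, with the floor of 50 as a dashed line. Asns spans 18739.9 in Ymac-1 to 24.0 in normal liver, Fgf21 runs the opposite way, and Sesn2 stays under the floor.

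Of the transcription factors, Atf4 itself read 8469.6 in Ymac-1, 7244 in HCC and 3056 in normal liver. Ymac-1 and HCC were close, at 1.17-fold, and both were above normal liver, by 2.77-fold and 2.37-fold. These steps did not stand clear of the brightness of the arrays. They were 0.75 and 0.59 above the median of the genes measured on all 3 arrays on the log2 scale. After quantile normalization Atf4 was higher by 1.11 in Ymac-1 and by 0.73 in the HCC than in normal liver, and under centring on the median probe the difference of HCC from normal liver was -0.037.

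Atf5, a bZIP factor that is translated like Atf4 under eIF2 phosphorylation and is abundant in liver, ran differently. It read 8504 in Ymac-1, 39056 in HCC and 30669 in normal liver. The line was the low array, 4.59-fold below HCC and 3.61-fold below normal liver (-2.57 on the log2 scale relative to the median of measured genes). The tissues differed by 0.35 on the log2 scale as deposited, and by -0.30 relative to the median of measured genes, so their order depended on the scaling.

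Ddit3, which encodes CHOP, the factor linked to cell death under lasting stress, read 1361 in Ymac-1, 946 in HCC and 205 in normal liver. It was 6.65-fold higher in Ymac-1 and 4.62-fold higher in the HCC than in normal liver. Relative to the measured genes these steps were 2.02 and 1.56 on the log2 scale. The difference of Ymac-1 from HCC, at 1.44-fold, was under the threshold as deposited.

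Of the feedback genes, Trib3, a pseudokinase gene induced by ATF4 and CHOP that in turn restrains them, followed Ddit3 closely. It read 2036 in Ymac-1, 1219.8 in HCC and 306 in normal liver. Its differences from normal liver were 2.73 in Ymac-1 and 1.99 in HCC on the log2 scale, against 2.73 and 2.21 for Ddit3. Less the medians, those of Trib3 were 2.02 in Ymac-1 and 1.34 in HCC. Ymac-1 and HCC differed by 1.67-fold, under the threshold. With each array centred on its median probe, Ddit3 and Trib3 passed it in Ymac-1 over HCC (1.01 and 1.22) and fell short of it in HCC over normal liver (0.93 and 0.71).

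Ppp1r15a encodes GADD34, the phosphatase subunit that removes the phosphate from eIF2 and so ends the response. It read 155 in Ymac-1, 336 in HCC and 70.1 in normal liver, the last of these close to the floor. HCC was the high array, 4.80-fold above normal liver. Ymac-1 was 2.16-fold below HCC and 2.22-fold above normal liver. On the scale relative to the medians Ppp1r15a was above normal liver by 0.43 in Ymac-1 and 1.61 in HCC, and after quantile normalization both Ymac-1 differences missed the threshold (-0.88 and 0.56).

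Of the genes of amino acid and glutathione turnover, Asns, the asparagine synthetase gene, gave the widest span of the members. It read 18739.9 in Ymac-1, 384 in HCC and 24.0 in normal liver. Ymac-1 stood 48.8-fold above HCC, and 22 of 19084 genes were higher by more. Against normal liver, where Asns was under the floor, Ymac-1 was at least 375-fold higher and HCC at least 7.68-fold. Less the medians, these log2 differences were at least 7.83 in Ymac-1 and at least 2.29 in HCC. Under the 4 other scalings of the arrays Asns differed by 5.51 to 6.09 on the log2 scale between Ymac-1 and HCC.

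Chac1, which cleaves glutathione and is induced by ATF4 and CHOP, was the other member higher in Ymac-1 cells than in HCC. It read 4310.1 in Ymac-1, 306 in HCC and 97.4 in normal liver. Ymac-1 was 14.1-fold above HCC, with 190 genes higher by more, and 44.2-fold above normal liver. Its log2 differences from normal liver, less the medians, were 4.75 in Ymac-1 and 1.00 in HCC. The step of HCC over normal liver, 3.14-fold as deposited, missed the threshold after quantile normalization (0.80).

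The genes that restrain the growth kinase mTORC1 were highest in HCC or not measured. Ddit4, which encodes REDD1 and is also induced by low oxygen and glucocorticoids, read 2227 in Ymac-1, 6668 in HCC and 126 in normal liver. HCC was 52.8-fold above normal liver, and 7 of 19084 genes were higher by more. Ymac-1 lay between the tissues, 2.99-fold below HCC and 17.6-fold above normal liver. Its differences from normal liver relative to the medians were 3.42 in Ymac-1 and 5.07 in HCC on the log2 scale. The 3 differences of Ddit4 passed the threshold under every scaling of the arrays. Sesn2, a sestrin gene also induced by p53, read 37.3 in Ymac-1, 45.9 in HCC and 6.94 in normal liver, all under the floor, so no fold is given.

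Fgf21, the liver hormone of fasting and stress, was lower in both Ymac-1 and HCC than in normal liver. It read 7.50 in Ymac-1, 369 in HCC and 1518 in normal liver. Normal liver was the high array and Ymac-1 was under the floor, at least 7.37-fold below HCC and at least 30.4-fold below normal liver. HCC was 4.12-fold below normal liver, and 45 genes were lower by more in that comparison. The log2 differences from normal liver, less the medians, were -5.64 or lower in Ymac-1 and -2.69 in HCC. Fgf21 is also a target of the fasting receptor PPAR alpha. Of 11 PPAR alpha targets with a probe, 10 were lower in Ymac-1 cells than in HCC (15.9% of all genes) and 0 higher (14.7%). Cyp4a14, a fatty acid hydroxylase gene, and Creb3l3, a liver factor that induces Fgf21, were at least 433-fold and at least 119-fold lower there, while Hadha and Acot1, genes of fatty acid breakdown, differed by -1.14 and -0.91 on the log2 scale, Acot1 under the threshold. In HCC 2 of the 11 were higher than in normal liver (15.9% of all genes) and 2 were lower (0.749%). After quantile normalization 0 were higher and 4 lower, where 4.79% and 3.28% of all genes were.

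**Figure D2:**
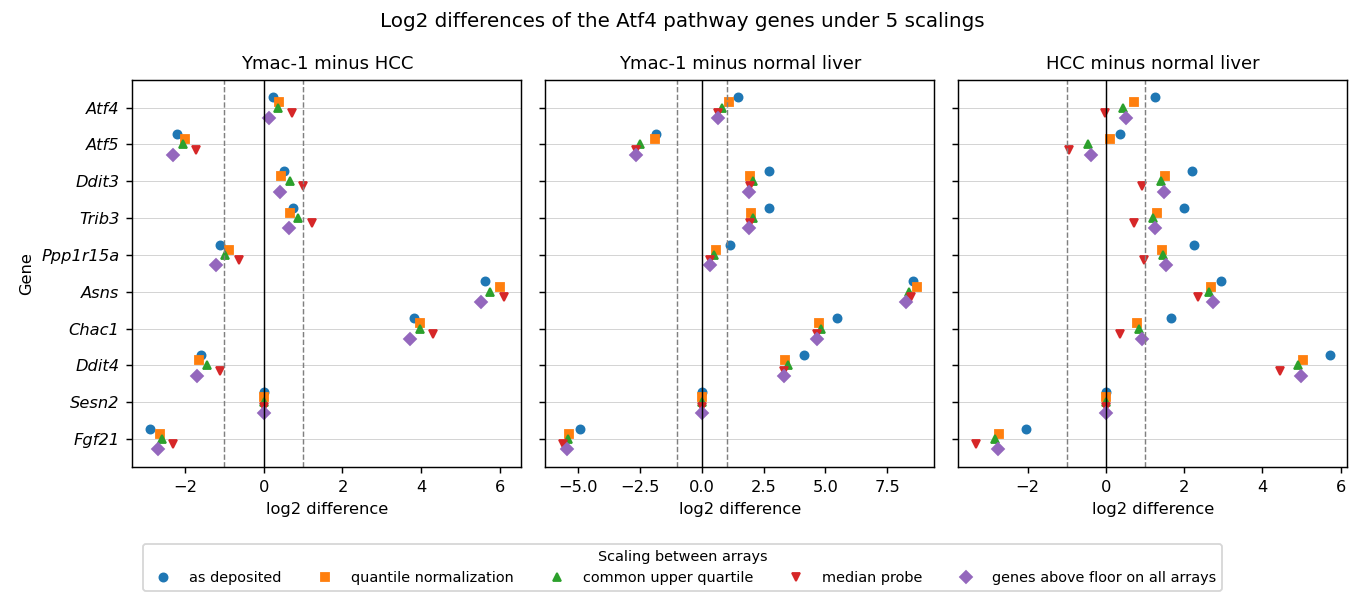
Log2 difference of each gene in the 3 comparisons (x axis), 1 marker for each of 5 scalings of the arrays, with the threshold of 1 as dashed lines. Asns, Chac1, Ddit4, Fgf21 and Atf5 stay past the threshold between Ymac-1 and HCC under all 5. Atf4 in HCC minus normal liver runs between -0.037 and 1.25.

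Counted together, 2 of the 10 members were higher in Ymac-1 cells than in HCC, where 14.7% of all genes were, and 4 were lower, where 15.9% were. Those higher were Asns and Chac1, and those lower were Fgf21, Atf5, Ddit4 and Ppp1r15a. The median of the members, with Sesn2 counted at 0, was 0.11, against 0.00 over all genes. Against normal liver, 7 members were higher in Ymac-1 (23.3% of all genes) and 2 were lower (9.41%). Here the median was 2.10 for the members and 0.00 for all genes. In HCC, 7 were higher than in normal liver (15.9% of all genes) and 1 was lower (0.749%), with a median of 1.82 against 0.02. The comparisons share arrays, so the counts are not independent of each other. The counts and medians over all genes include 7400 genes that were under the floor on every array. Over the 11684 genes above the floor on at least 1 array, the median was -0.03 for Ymac-1 minus HCC. It was 0.50 for Ymac-1 minus normal liver and 0.60 for HCC minus normal liver. The medians of the 9 measured members were 0.23, 2.73 and 1.99 in the same order.

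**Figure D3:**
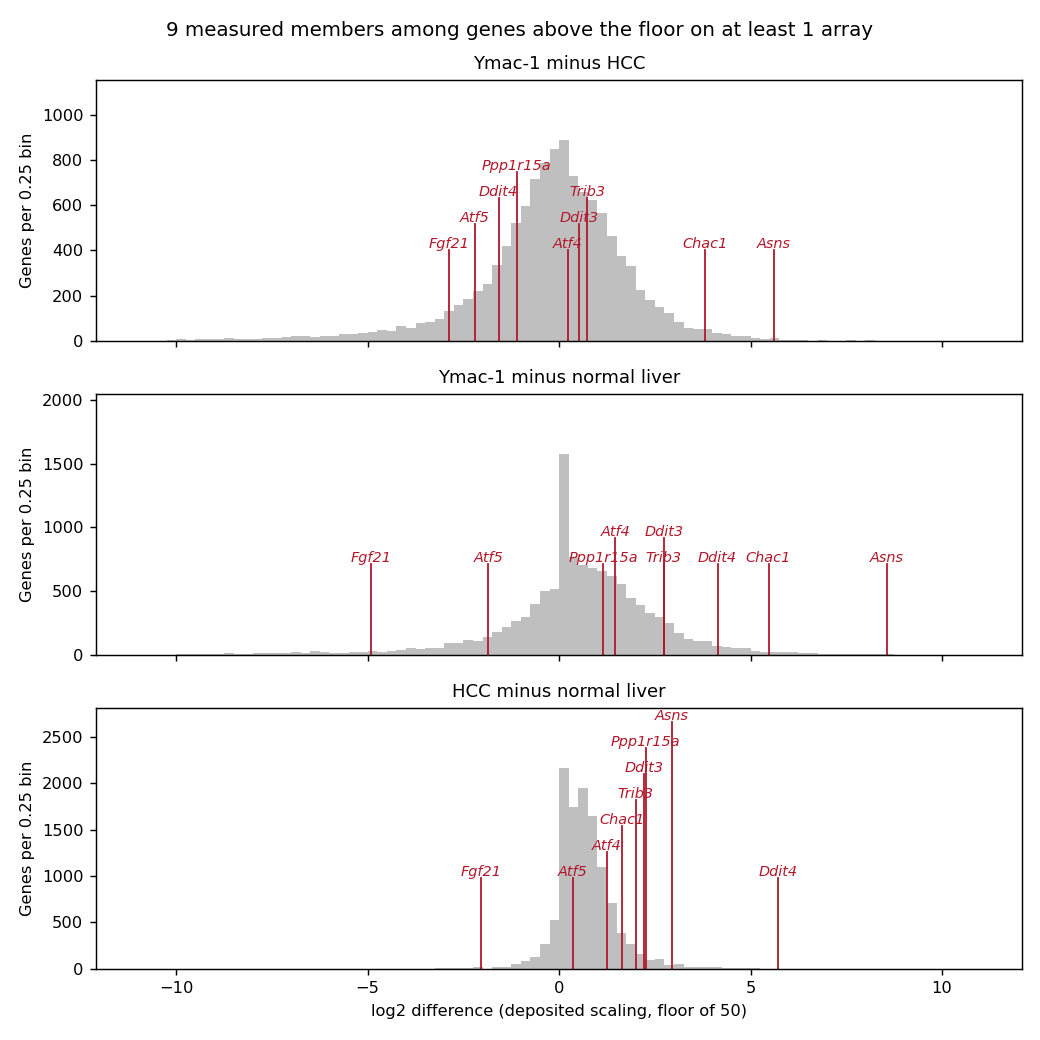
Number of genes per bin of 0.25 in log2 difference (x axis) for 11684 genes above the floor on at least 1 array, with the 9 measured members as labelled lines. In HCC minus normal liver 7 members lie above the threshold of 1 and Fgf21 lies at -2.04. In Ymac-1 minus HCC the members spread from -2.88 to 5.61.

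The share of higher genes among all that differed moved with the scaling, and the member counts have to be read beside it. For Ymac-1 over normal liver it was 71.2% as deposited, against 53.6% after quantile normalization, and for HCC over normal liver 95.5% and 59.4%. After quantile normalization 6 members were higher in Ymac-1 and 5 in the HCC than in normal liver, where 16.1% and 4.79% of all genes were. Between Ymac-1 and HCC it moved less, from 48.1% as deposited to 54.0% with quantile normalization. With each array centred on its median probe the shares were 47.7% for Ymac-1 over normal liver, 19.7% for HCC over normal liver and 64.8% for Ymac-1 over HCC, and scaled on the genes measured on every array the first 2 were 47.0% and 64.8%.

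Upstream of Atf4, the 4 eIF2 kinase genes Eif2ak1 to Eif2ak4 differed between Ymac-1 and HCC by less than the threshold, by -0.78 to -0.11 on the log2 scale. The list held 13 genes with a probe, for these kinases, eIF2, its exchange factor eIF2B and the regulators Ppp1r15b, Dnajc3 and Impact. Of them, 4 were higher in Ymac-1 cells than in HCC (14.7% of all genes) and 1 was lower (15.9%), namely Dnajc3. Eif2s2, a subunit of eIF2, read 1011 in Ymac-1 and 179 in HCC, and Eif2b5, the catalytic subunit of eIF2B, 1901 in Ymac-1 and 479 in HCC. Eif2ak3, which encodes the ER stress kinase PERK, read 1042 in Ymac-1, 1791 in HCC and 726 in normal liver. Dnajc3, an ER chaperone gene whose product inhibits eIF2 kinases, read 375 in Ymac-1 and 2411 in HCC.

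The bZIP partners and related factors were divided. Of 10 with a probe, 8 lay above the floor on at least 1 array. In Ymac-1 cells 2 were higher than in HCC (14.7% of all genes) and 3 were lower (15.9%). In the HCC 4 were higher than in normal liver (15.9% of all genes), and 2 after quantile normalization (4.79%). Jdp2, a bZIP repressor, read 3571 in Ymac-1, 607 in HCC and 114 in normal liver, and Nupr1, a small stress-induced chromatin protein gene, 289 in Ymac-1, 130.1 in HCC and 15.0 in normal liver. Cebpg, a bZIP partner of ATF4, read 38.5 in Ymac-1, under the floor, against 165 in HCC. Cebpa, a hepatocyte factor, read 53.3 in Ymac-1 and 2594 in HCC.

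Genes of amino acid supply were divided among their groups. Of 33 genes with a probe of amino acid synthesis, amino acid transport and tRNA charging that are known as ATF4 targets or belong to these groups, 16 were higher in Ymac-1 cells than in HCC and 6 were lower, against 14.7% and 15.9% of all genes. Their median was 0.78. By group it was -0.21 for 10 synthesis genes (4 higher and 3 lower), 0.72 for 10 transporters (5 and 2) and 1.23 for 13 tRNA charging genes (7 and 1). Psat1, of serine synthesis, read 7965 in Ymac-1, 194 in HCC and 9.87 in normal liver, a profile like that of Asns. Aldh18a1, of proline synthesis, was at least 18.2-fold higher in Ymac-1 cells than in HCC. The transaminase genes Gpt2 and Got1 were 24.5-fold and 3.80-fold lower. Gpt2 was also lower than in normal liver, at 756 in Ymac-1 and 9151 in normal liver. Got1 read 3679 in Ymac-1 and 2750 in normal liver. Its log2 difference of 0.42 was under the threshold and below the median of 0.72 for measured genes in that comparison. Among the transporters, Slc7a1 and Slc7a5, for cationic and for large neutral amino acids, were 14.4-fold and at least 6.30-fold higher in Ymac-1 cells than in HCC. Slc7a11, the cystine carrier, was highest in HCC as Ddit4 was, at 344 in Ymac-1, 1608 in HCC and 11.4 in normal liver, and Slc6a9, a glycine carrier, was 2.03-fold lower in Ymac-1. Of the tRNA charging genes, Cars and Iars were higher in Ymac-1 cells than in HCC by 5.10-fold and 5.08-fold, while Eprs read 1862 in Ymac-1 and 1887 in HCC. Only Xpot, which exports tRNA from the nucleus, was lower, by 3.18-fold.

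Of 14 genes with a probe for secreted factors, autophagy and cell death, 2 were higher and 5 lower in Ymac-1 cells than in HCC, and the share of those higher was near that of all genes (14.7%, and 15.9% lower). Pmaip1, a death gene that p53 also induces, was 9.56-fold higher and Sqstm1, an autophagy receptor gene, 2.06-fold higher. Txnip, an inhibitor of thioredoxin, and Herpud1, of ER protein degradation, were 7.98-fold and 7.31-fold lower.

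Genes of the other branches of the unfolded protein response stood apart from Asns and Chac1. Of 18 ER chaperone and related genes with a probe, 15 lay above the floor on at least 1 array, and the others could not be called. Of the 18, 1 was higher in Ymac-1 cells than in HCC (14.7% of all genes) and 6 were lower (15.9%). None was higher or lower in the HCC than in normal liver, where 15.9% and 0.749% of all genes were. Sdf2l1, an ER chaperone partner, was 2.87-fold higher in Ymac-1 cells than in HCC. Pdia4, a disulfide isomerase gene, was 0.92 higher on the log2 scale, under the threshold. Dnajb9, a target of the XBP1 branch, and Sel1l, of ER protein degradation, were 9.42-fold and 4.95-fold lower. The ER stress element of these genes is CCAAT and CCACG spaced by 9 bases, on either strand. It was in 7 of the 15 of them that had a promoter window. None of the 10 members held it, and 0.137% of all genes with a window did. The composite element TGATGNAA was in 4.51% of all genes with a window, and in 0 of these 15, near that share. It was in 5 of 9 tRNA charging genes, 2 of 7 transporters and 2 of 9 synthesis genes with a window. Of the bZIP list 3 of 7 held it, and of the secreted factor, autophagy and death list 2 of 12. It was also in 0 of 10 genes of the eIF2 list, 0 of 9 p53 targets, 0 of 12 hypoxia targets and 0 of 8 PPAR alpha targets.

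The p53 and hypoxia lists hold targets of p53, which also induces Sesn2, and of low oxygen, which also induces Ddit4. Of 14 p53 targets, 6 were higher in Ymac-1 cells than in HCC (14.7% of all genes) and 3 were lower (15.9%). Phlda3, an inhibitor of Akt, was 23.4-fold higher, and Trp53inp1, of autophagy and death, and Btg2, an antiproliferative gene, were 6.37-fold and at least 7.54-fold lower. Of 13 hypoxia targets, 9 were higher in the HCC than in normal liver and 0 were lower, where 15.9% and 0.749% of all genes were. After quantile normalization 7 were higher, where 4.79% of all genes were, and 1 was lower. In Ymac-1 cells 2 were higher than in HCC (14.7% of all genes) and 6 were lower (15.9%). Hk2 and Slc2a1, of glucose use, read 2946 and 788 in HCC, against 161 and 59.8 in normal liver, and in Ymac-1 they were 2.06-fold and 2.28-fold above HCC. Egln3, an oxygen sensor gene, and Ankrd37 were at 161 and 94.1 in Ymac-1 cells, against 2985 and 472 in HCC, and so were highest in HCC as Ddit4 was.

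**Figure D4:**
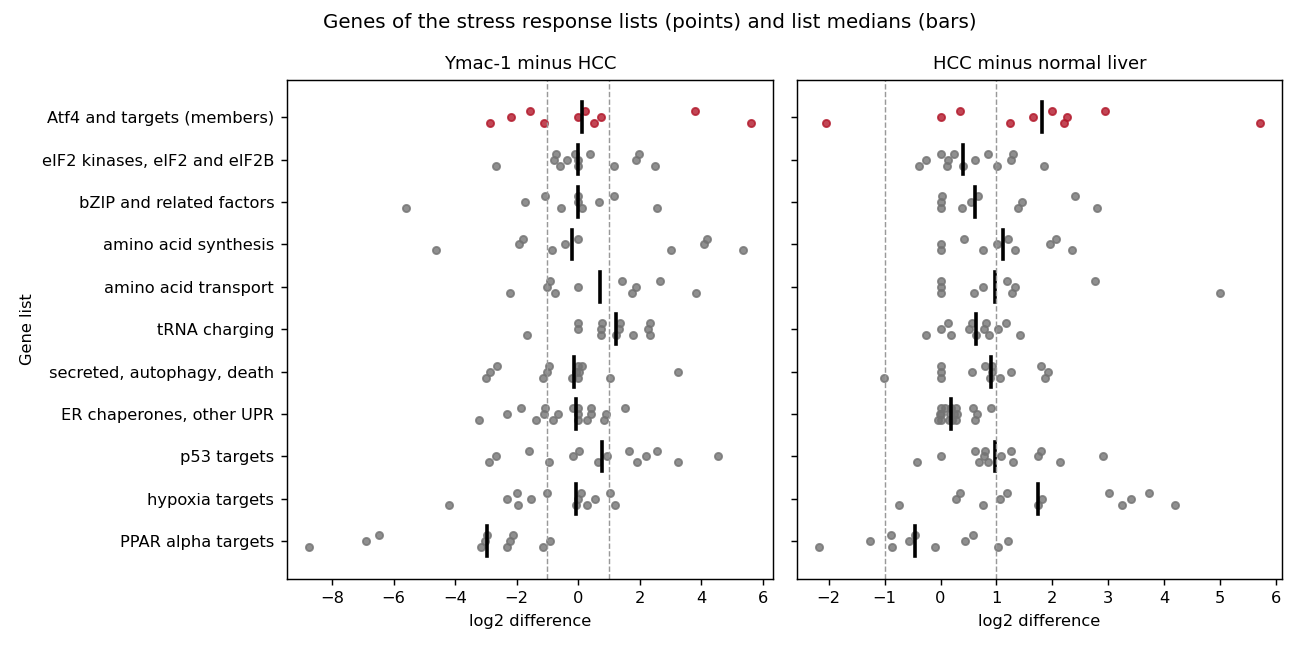
Log2 difference (x axis) of every gene with a probe in the 11 lists, 1 point per gene and a bar at each list's median, for Ymac-1 minus HCC and HCC minus normal liver, with the threshold of 1 as dashed lines. The PPAR alpha targets lie lowest in Ymac-1, with a median of -2.98, and the ER chaperones stay within the threshold in HCC minus normal liver.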

How the data were processed

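Total RNA was amplified by the authors into Cy5-labelled antisense RNA and hybridized to 3 arrays. The deposited values are linear intensities of 26423 probes, partly below 0 and so already background-subtracted; how this was done and how arrays were scaled to each other is not stated. The deposited scaling was kept. The platform annotation named 1 gene for 21876 probes, several for 0 and none for 4547, and 2424 of 19084 genes had several probes, of which the one with the highest mean log2 value was used. Low values can hide changes, and the number of arrays limits the precision. Calls used a floor of 50 and a log2 difference of 1, the ratio in the study's methods. Their P value cannot be had from 1 array per condition. The members and lists were chosen with earlier results of these data known. Named are all members and, from each pathway list, the 2 highest and 2 lowest genes in Ymac-1 minus HCC above the floor on at least 1 array, and some markers and eIF2 kinase genes as examples after their values were seen. Alternatives were other scalings, floors, thresholds, probe rules and a filter. The calling step was tested on simulated data. Python 3.11.15, pandas 2.3.3, numpy 2.4.6 and matplotlib 3.10.9 were used.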

Additional observations from a re-analysis of the deposited data

How the results depend on the processing

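There were 9 alternatives written beforehand and 1 chosen after seeing the data (scaling on the genes measured on every array). Each member difference was taken again under each, where its gene was kept, giving 291 values. Of these, 257 kept their side of the threshold, 29 fell under it and 4 passed it. The 257 include the values under the probe rule and the filter, which could not change. The remaining 1, which had passed the threshold as deposited, changed sign. It was that of Atf4 in HCC minus normal liver (-0.037 with each array centred on its median probe). Atf5 in the same comparison, under the threshold throughout, changed sign from 0.35 as deposited to -0.93 with that centring, -0.46 with a common upper quartile and -0.38 scaled on the genes measured on every array. That centring also left 2 members higher in the HCC than in normal liver (7 as deposited), with a median of 0.54. Of all genes, 2.85% were higher there (15.9% as deposited). The centring left 4 members higher in Ymac-1 cells than in HCC (2 as deposited), where 20% of all genes were (14.7% as deposited). It moves the genes measured on all 3 arrays to a median of -0.63 in HCC minus normal liver. At a log2 threshold of 2, which the median of 1.82 in HCC minus normal liver misses, 4 members were higher in that comparison (2.95% of all genes). At this threshold 2 were lower in Ymac-1 cells than in HCC (7.89%) and 1 was lower in Ymac-1 than in normal liver (5.19%). Restriction to the 7687 genes above the floor on every array, which leaves out Asns, Fgf21 and Sesn2, kept 7 members. Of these 7, 1 was higher in Ymac-1 cells than in HCC (23.7% of the 7687 genes) and 3 were lower (22.4%). In Ymac-1, 6 were higher than in normal liver (42.1%) and 1 was lower (13%). In the HCC, 6 were higher than in normal liver (25.7%) and 0 were lower (0.742%). With a floor of 20, Sesn2 was higher in the HCC than in normal liver by at least 1.20. The mean over probes changed nothing, since each member has 1 probe. No paired analysis was possible because each condition has 1 array. Signal over background limits Sesn2 everywhere, Asns in normal liver and Fgf21 in Ymac-1.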
